A study of Homo sapiens with 4 samples.

Results

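The JUN and FOS genes encode the basic leucine zipper proteins of the AP-1 transcription factors. They were taken by name after the transcript counts of each library had been summed to genes by Ensembl ID, which gave all 7 members, JUN, JUNB, JUND, FOS, FOSB, FOSL1 and FOSL2, among 58560 genes, of which 19894 are protein-coding. The RNA came from A549, an established human lung adenocarcinoma cell line of epithelial origin, and was sequenced after poly-T selection. There were 2 libraries of cells kept without glutamine, deprived replicate 1 being labelled with 24 hours and deprived replicate 2 with 25 (the protocol gives 24 for both), and 2 libraries of control cells. All cells were grown in DMEM with serum. The deprived cells were washed with buffer before they were given the glutamine-free medium, whereas the control labels name no treatment, so the wash and the missing glutamine cannot be told apart.

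JUN proteins pair with each other or with FOS proteins, while FOS proteins need a JUN partner to bind DNA. The dimers recognise the TRE site TGACTCA and, more weakly, the CRE site TGACGTCA. Most of these genes are immediate early genes, whose RNA appears within minutes of a growth or stress signal and is broken down quickly. JNK, a stress-activated MAP kinase, phosphorylates JUN, and ERK stabilises FOS-family proteins. JUND differs from the rest in being made steadily in resting cells. In epithelial and carcinoma cells, FOSL1 (FRA1) and FOSL2 (FRA2) are the FOS proteins that persist when signalling is sustained, and they are known for their part in invasion and wound healing.

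Library totals ran from 101496318 to 123414592 counts. Where groups are compared gene by gene, levels are CPM. These are the counts divided by the library's sum over the genes tested and scaled with edgeR's TMM factors. Changes are log2 fold changes of deprived over control cells ± SE from edgeR's quasi-likelihood test. They were called at a Benjamini-Hochberg adjusted p under 0.05 over 24527 genes. Nothing in the labels says that the libraries came from separate cultures, so the p-values measure the spread between these libraries. The keratin genes KRT7, KRT8, KRT18 and KRT19 and the E-cadherin gene CDH1 were above 1 CPM in every library, whereas EPCAM lay between 0.498 and 2.70 CPM. The 6 epithelial markers summed to 4179 and 3566 CPM in deprived cells and to 8226 and 8387 CPM in control cells, but they did not move together. KRT8, with 886 and 714 CPM in deprived against 5154 and 5235 CPM in control cells, carried most of the difference. CDH1 was lower too, with 6.16 and 4.99 CPM in deprived against 42.7 and 37.8 CPM in control cells, as were KRT18, KRT19 and EPCAM. KRT7 alone was higher in deprived cells, with 2160.3 and 1836 CPM against 656 and 706 CPM. Of 9 alveolar type II markers, 6 stayed under 1 CPM in every library, among them all the surfactant protein genes tested, and SFTPA1 was at 0 counts. The 6 fibroblast markers summed to at most 2.39 CPM and the 5 endothelial markers to at most 0.910 CPM in any library. The 6 blood markers summed to 1.72 and 1.47 CPM in deprived against 27.2 and 14.4 CPM in control cells. Most of the control sum was CD14, at 13.2 and 12.4 CPM, and HBB, at 11.6 CPM in control replicate 1 but 0.227 CPM in control replicate 2. PTPRC, another of the blood markers, was at 0.385 and 0 CPM in the control libraries. The part of these shifts in the results below was not tested.

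All 7 JUN and FOS genes were called higher in deprived cells and 0 were called lower. JUN and FOSL1 rose most, FOSB next, JUNB and FOSL2 by close to the same amount, FOS less, and JUND least. Of all genes tested, 49.6% of genes were called, 25.2% higher and 24.4% lower, so a call alone says little about a member here. DESeq2 and limma-voom likewise gave 7 higher and 0 lower. The median log2 fold change of the members was 2.96, against -0.06 over all genes tested. Ordered by log2 fold change from the top, FOSL1 was number 106 and JUN number 108 of the 24527 genes, FOSB 198, FOSL2 438, JUNB 470, FOS 1642 and JUND 8367.

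**Figure D1:**
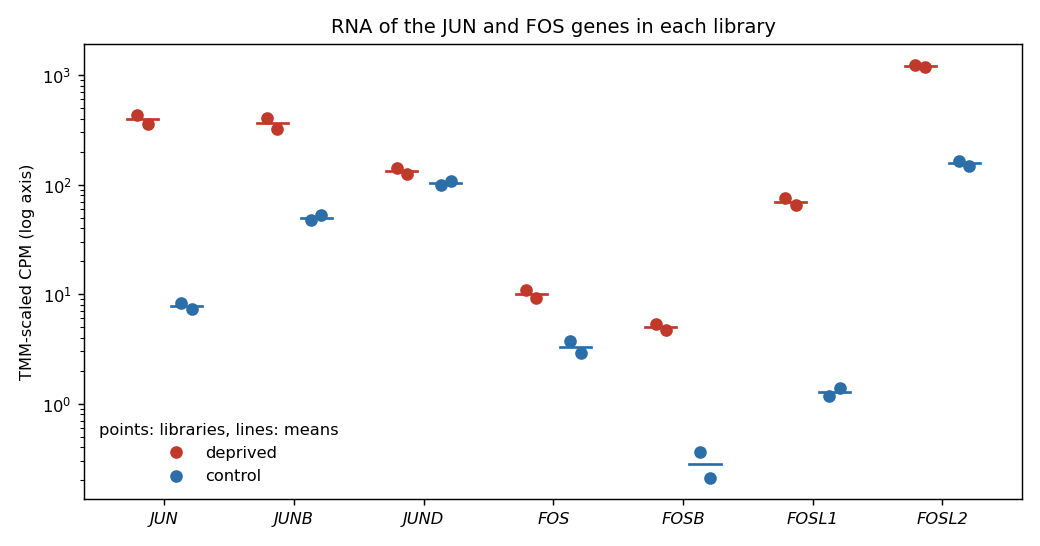
TMM-scaled CPM of the 7 JUN and FOS genes on a log axis, with a point for each library and a line for each group mean (n = 2 deprived and n = 2 control). JUND has the smallest gap between the groups on this TMM-scaled axis, with 141 and 125 CPM in deprived against 99.2 and 108 CPM in control cells.

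Among the JUN genes, JUN itself moved furthest. JUN (ENSG00000177606; GRCh38 chromosome 1, 58780788 to 58784327, minus strand) encodes c-Jun, the most potent activator of the group. It had 44942 and 38671 counts in deprived cells against 946 and 798 in control cells, or 430.3 and 356 CPM against 8.28 and 7.24 CPM. The groups were far apart, and deprived replicate 2 was somewhat below deprived replicate 1. Its log2 fold change was 5.66 ± 0.14 (edgeR adjusted p = 8.64e-06). JUNB (ENSG00000171223; chromosome 19, 12791496 to 12793315, plus strand) encodes a weaker activator that can restrain c-Jun. It had 405 and 318 CPM in deprived cells against 47.0 and 53.1 CPM in control cells, a log2 fold change of 2.85 ± 0.14 (edgeR adjusted p = 3.33e-05). Of its 1820 exonic bases, 259 are also exon of HOOK2 on the other strand, where 291 and 294 counts in deprived and 291 and 311 in control libraries were assigned to HOOK2, far fewer than to JUNB and alike in both groups.

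JUND (ENSG00000130522; chromosome 19, 18279760 to 18281622, minus strand), the steadily expressed member, barely moved. It had 141 and 125 CPM in deprived cells against 99.2 and 108 CPM in control cells, so the groups did not overlap, but the gap was small. The log2 fold change was 0.36 ± 0.09 (edgeR adjusted p = 0.0187). This call was lost with library size only, at 0.020 ± 0.074 (edgeR adjusted p = 0.844), and without control replicate 1 or without deprived replicate 1 (edgeR adjusted p = 0.0989 and 0.0611). With library size only the median of all genes was -0.40, against -0.06, and 32.8% of the calls were higher, against 50.8%, and the other 6 members were still called higher with it. JUN, JUNB and JUND share a structure without introns: the transcript that held most of their counts has 1 exon, whereas that of each FOS gene has 4.

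Promoter windows of 250 bases before to 15 after the RefSeq start (GRCh38.p14) are printed for JUN (chr1:58784033.0-58784297.0, minus strand) and JUND (chr19:18281608.0-18281872.0, minus strand), the members of the JUN group that moved most and least, with a shorter stretch for JUNB (chr19:12791337.0-12791366.0, plus strand). Positions count from the RefSeq start, which can differ from the start of the gene counted here. The JUN window lies wholly within the counted JUN gene, which begins further upstream, at 58784327 on the minus strand. Its bases are therefore not upstream of the counted transcript. Capitals mark TGACG on either strand, the CRE TGACGTCA and the JUN site TGACATCA.
JUN promoter: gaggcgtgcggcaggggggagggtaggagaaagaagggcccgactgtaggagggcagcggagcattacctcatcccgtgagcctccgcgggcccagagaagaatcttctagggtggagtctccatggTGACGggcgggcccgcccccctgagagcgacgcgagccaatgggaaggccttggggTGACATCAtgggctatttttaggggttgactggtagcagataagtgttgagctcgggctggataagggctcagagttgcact
JUND promoter: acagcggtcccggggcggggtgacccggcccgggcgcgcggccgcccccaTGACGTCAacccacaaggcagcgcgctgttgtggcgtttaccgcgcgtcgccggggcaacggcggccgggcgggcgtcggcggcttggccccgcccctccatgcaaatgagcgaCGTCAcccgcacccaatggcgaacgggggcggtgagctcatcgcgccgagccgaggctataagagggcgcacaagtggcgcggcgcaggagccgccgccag
JUNB promoter: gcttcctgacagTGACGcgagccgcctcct
The JUN window holds TGACATCA at -67 to -60, the variant through which c-Jun is known to act on its own gene, and 2.61% of 35116 RefSeq promoter windows, each reaching to 50 bases after the start, hold those letters on either strand. The JUND window holds the full CRE at -200 to -193, as do 1.85% of windows. The motifs were chosen after the windows had been seen, so these shares are a description and no test. TGACG was found in all 6 member windows searched and in 24.6% of all windows. It is part of the CRE, so 2 of the 3 JUND matches, at -200 to -196 and on the other strand at -197 to -193, lie within it.

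FOSL1 rose most of the FOS genes. FOSL1 (ENSG00000175592; chromosome 11, 65892049 to 65900573, minus strand) encodes FRA1, a FOS protein without the strong activation domain of c-Fos. It had 7840 and 7009 counts in deprived cells against 133 and 153 in control cells, or 75.1 and 64.6 CPM against 1.16 and 1.39 CPM. Its log2 fold change of 5.77 ± 0.14 (edgeR adjusted p = 8.64e-06) was within 1 SE of that of JUN. FOSL2 (ENSG00000075426; chromosome 2, 28392448 to 28417312, plus strand) encodes FRA2, a close relative of FRA1. It had the most counts of the family, 129934 and 129122 in deprived cells against 18939 and 16294 in control cells. In CPM these were 1244 and 1189.9 in deprived against 166 and 148 in control cells, and the log2 fold change was 2.96 ± 0.10 (edgeR adjusted p = 1.47e-05). Nearly all of these counts, 129675 and 128717 in deprived and 18216 and 16163 in control libraries, were on FOSL2-201, the 6708-base transcript with the long 3′ end.

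FOS and FOSB, the members that serum and stress induce most sharply in the first hour, stayed at low levels. FOS (ENSG00000170345; chromosome 14, 75278774 to 75282230, plus strand) encodes c-Fos. It had 1148 and 999 counts in deprived cells against 425 and 321 in control cells, or 10.99 and 9.21 CPM against 3.72 and 2.91 CPM. The groups did not overlap, and the log2 fold change was 1.61 ± 0.19 (edgeR adjusted p = 0.000852). FOSB (ENSG00000125740; chromosome 19, 45467995 to 45475179, plus strand) had 552 and 511 counts in deprived cells against 41 and 23 in control cells, or 5.29 and 4.71 CPM against 0.359 and 0.209 CPM. Its log2 fold change was 4.13 ± 0.32 (edgeR adjusted p = 0.000156), with the largest SE of the family.

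The FOSB counts were spread over several transcripts. FOSB-205, a retained-intron transcript, held 6 and 26 counts in deprived and 5 and 15 in control libraries. On transcripts of protein-coding type alone the FOSB log2 fold change was 4.57 ± 0.70 (edgeR adjusted p = 0.00481). FOSB-201 held 345 and 236 counts in deprived and 36 and 8 in control libraries. FOSB-210 held 0 and 103 in deprived libraries and FOSB-206 held 176 and 43, so the deprived libraries differed in which minor transcript took the rest, and both transcripts were at 0 in the control libraries. FOSL1-201 held 7479 and 6545 of the FOSL1 counts in deprived and 83 and 137 in control libraries. How reads shared by overlapping transcripts were assigned is not given in the sources used here, so these splits are less certain than the gene sums.

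For the FOS group, the promoter window of FOSL2 (chr2:28392608.0-28392872.0, plus strand) is printed because that gene held the most counts, with short stretches for FOS (chr14:75278752.0-75278781.0, plus strand) and FOSB (chr19:45467924.0-45467953.0, plus strand) around their TGACG. The FOSL2 window lies wholly within the counted FOSL2 gene, which begins further upstream, at 28392448. The last bases of the FOS stretch lie within the counted FOS gene, which begins at 75278774. Capitals mark TGACG on either strand and the TRE TGACTCA.
FOSL2 promoter: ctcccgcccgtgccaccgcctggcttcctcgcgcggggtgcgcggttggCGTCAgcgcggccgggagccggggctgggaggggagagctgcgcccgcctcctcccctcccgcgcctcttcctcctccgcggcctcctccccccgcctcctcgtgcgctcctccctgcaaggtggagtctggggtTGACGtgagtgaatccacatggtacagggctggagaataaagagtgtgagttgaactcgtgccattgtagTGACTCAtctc
FOS promoter: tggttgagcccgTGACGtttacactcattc
FOSB promoter: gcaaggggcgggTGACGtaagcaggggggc
Of the 6 windows searched (JUN, JUNB, JUND, FOS, FOSB and FOSL2), that of FOSL2 alone held the TRE, at 5 to 11 bases after the start, and 4.95% of all windows hold TGACTCA or its reverse complement. The TGACG of FOS lies at -64 to -60, that of FOSB at -60 to -56 and that of FOSL2 on the gene's strand at -66 to -62, and on JUN and JUNB it lies further up, at -123 to -119 and -137 to -133. The TATA letters TATAAA were found on either strand in the windows of JUNB, FOS and FOSB and in 11.5% of all windows. The letters TGATGNAA, which ATF4-CEBP dimers can bind, and the CArG box of SRF were found on neither strand in any of the 6 windows, against 3.62% and 1.29% of all windows. Letters this rare are missing from most windows, and sites more than 250 bases before the start were not searched. Their absence here therefore does not show that a gene lacks such a site. These matches describe the letters in a short window and nothing more.

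The 3′ ends were read for AU-rich elements, which mark many immediate early mRNAs for rapid decay. Of the 7 main transcripts, 6 carry at least 1 TATTTAT in the 3′ UTR and JUNB carries 0, while 30.5% of 17099 protein-coding genes with a counted transcript carry at least 1. FOS had the highest density of the core ATTTA, 5 in 806 bases or 6.20 per kb, and FOSL2 the largest number, 9 in 4864 bases or 1.85 per kb. JUN had 2.33, JUNB 4.0, JUND 1.47, FOSB 1.39 and FOSL1 1.502 per kb, against a median of 1.46 over those genes. Stretches of 30 bases around the first TATTTAT are shown for FOS, whose ATTTA letters run together, and for JUN and FOSL1, which rose most, with ATTTA in capitals.
FOS 3′ end: gtgtttttaATTTATTTAttaagatggatt
JUN 3′ end: tttgcttatgaatATTTAtaacagcattct
FOSL1 3′ end: gagggcagctgctATTTAttttcctaaaga

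**Figure D2:**
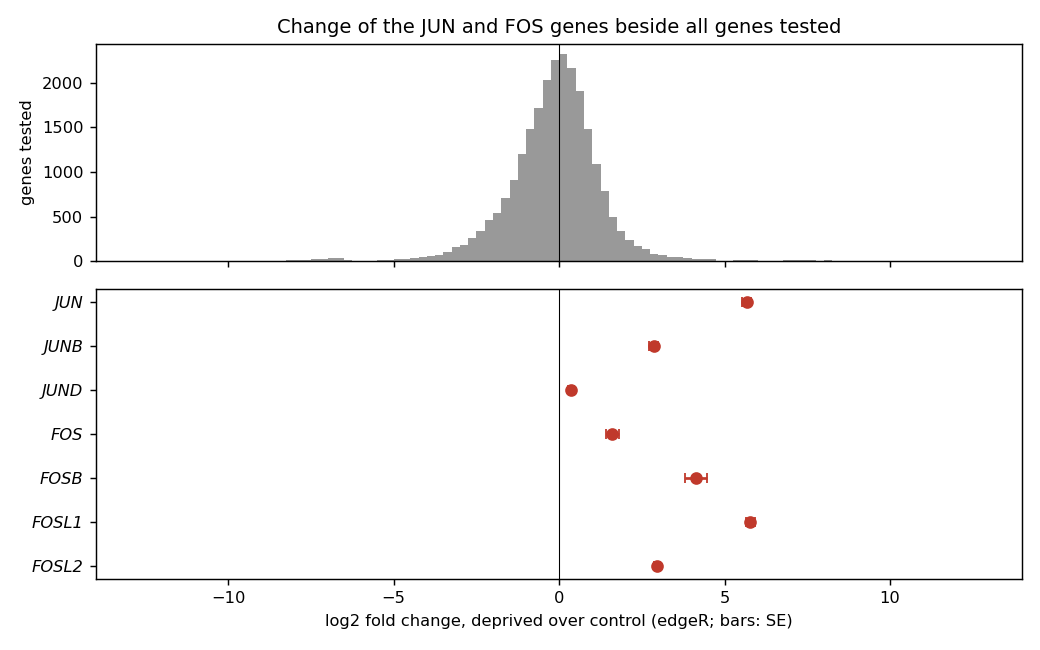
Top: histogram of the log2 fold change of all 24527 genes tested, deprived over control. Bottom: the log2 fold change of each JUN and FOS gene on the same axis, with bars of 1 SE, from 0.36 for JUND to 5.77 for FOSL1.

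Levels of different genes were set against each other per length, as TPM, in which counts are divided by annotated transcript length and scaled to the same total in each library. TPM carry no TMM factors, unlike the CPM above. Differences between the groups in TPM, the sum below included, hold for this scaling and can differ from those in CPM. The 7 genes together had 983 and 979 TPM in deprived libraries against 236 and 219 TPM in control libraries, a mean of 981 ± 3.01 against 228 ± 12.6 TPM (SD, n = 2 each), or 4.31 times as much. With 2 libraries a group the smallest p of a two-sided exact permutation test is 0.333, which this sum reached. In control cells JUND alone made up 48.6% and 50.8% of the family's TPM. In deprived cells JUND made up 11.5% and 11.8%, although its own level was 113 and 116 TPM in deprived against 115 and 111 TPM in control libraries and overlapped between the groups. With the TMM factors, in CPM, JUND did not overlap and had the log2 fold change of 0.36 given above.

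The order of the levels differed between the groups. In deprived cells JUNB (332 and 302 TPM) and FOSL2 (278 and 308 TPM) were highest and overlapped each other, followed by JUN (181 and 174 TPM), JUND, FOSL1 (68.7 and 68.6 TPM), FOS (7.81 and 7.48 TPM) and FOSB (2.19 and 2.50 TPM). In control cells JUND was highest, then JUNB (55.8 and 55.6 TPM) and FOSL2 (54.5 and 43.4 TPM), whose means differed by less than the SD of FOSL2. JUN (5.04 and 3.90 TPM) and FOS (4.09 and 3.01 TPM) overlapped below them, and FOSL1 (2.01 and 1.65 TPM) and FOSB (0.223 and 0.156 TPM) came last. By TPM among 19894 protein-coding genes, JUN stood at rank 576 and 660 in deprived libraries and at rank 10418 and 10613 in control libraries. FOSL1 stood at rank 1883 and 2083 in deprived and at rank 11819 and 11872 in control libraries. JUNB and FOSL2 were within the top 352 ranks in every deprived library. This order depends on the length used. With the mean length of all listed transcripts of a gene, FOSL2 (380.4 and 408 TPM) was above JUNB (235 and 207 TPM) in deprived cells, and JUN (128 and 119 TPM) overlapped JUND (126 and 125 TPM). In control cells FOSL2 (69.8 and 56.7 TPM) was then above JUNB (37.6 and 38.6 TPM), and FOS (5.40 and 3.85 TPM) was above JUN (3.40 and 2.71 TPM).

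The FOS group took a larger share of the family in deprived cells. FOS, FOSB, FOSL1 and FOSL2 together held 36.3% and 39.5% of the family's TPM in deprived libraries against 25.7% and 22.0% in control libraries, and the groups did not overlap. FOSL2 and FOSL1 made up nearly all of it in deprived cells, at 28.3% and 31.5% for FOSL2 and 6.99% and 7.01% for FOSL1. FOS fell short of 1% there, with 0.794% and 0.764%, against 1.73% and 1.38% in control cells. JUN held 18.5% and 17.8% of the family's TPM in deprived against 2.13% and 1.78% in control cells. Dividing by that mean length moved the FOS group's mean share to 50.1% in deprived and 29.8% in control cells.

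**Figure D3:**
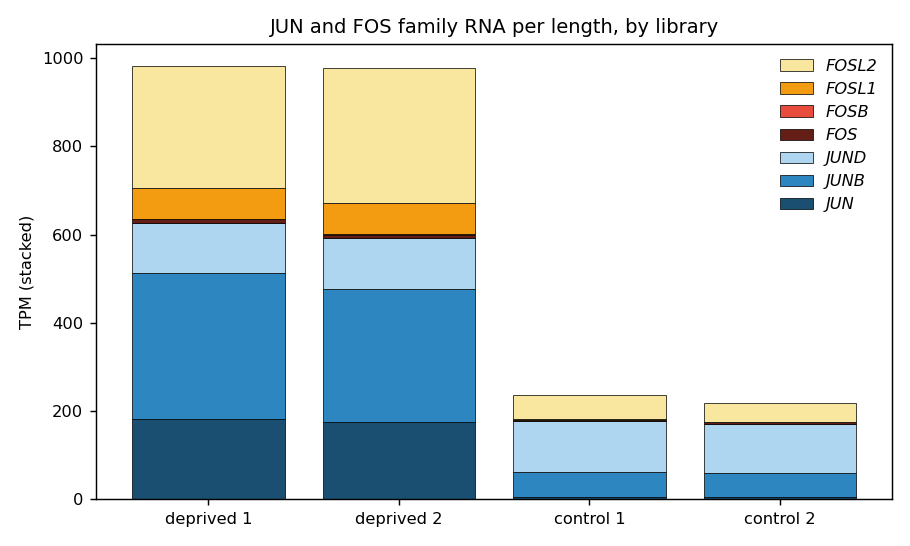
Stacked TPM of the 7 JUN and FOS genes in each library, from JUN at the bottom to FOSL2 at the top. The 2 deprived libraries reach 983 and 979 TPM and the 2 control libraries 236 and 219 TPM, while the JUND segment has close to the same height in all 4.

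Among other basic leucine zipper genes whose products pair with JUN or FOS proteins, ATF3 moved furthest. Of 7 dimer partner genes, 6 were tested, 1 was called higher and 1 lower, against 49.6% of all genes tested that were called, with a median log2 fold change of 0.09. With library size only 1 was higher and 2 lower (median -0.24), and BATF was at 0 counts in all libraries. ATF3, a stress-induced factor that pairs with c-Jun, had 168 and 148 CPM in deprived cells against 1.63 and 1.59 CPM in control cells (6.62 ± 0.11, edgeR adjusted p = 8.64e-06). On its transcripts of protein-coding type alone, ATF3 had 9623 and 4569 counts in deprived against 0 and 4 in control libraries, too few in control cells for a fold change. BATF3, a dimer partner best known from dendritic cells, was at 3.77 and 2.53 CPM in deprived against 5.43 and 5.38 CPM in control cells (-0.78 ± 0.23, edgeR adjusted p = 0.0346), a call lost without control replicate 1, control replicate 2 or deprived replicate 2 (edgeR adjusted p = 0.0907, 0.0857 and 0.0893) and with no filter (0.0784), and at -2.13 with protein-coding transcripts only. JDP2, which represses AP-1 targets, was at 9.15 and 6.93 CPM in deprived against 7.29 and 6.19 CPM in control cells (0.25 ± 0.19, edgeR adjusted p = 0.313), and at -0.090 with library size only.

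The kinase cascades above AP-1 held genes called higher and genes called lower, as did all genes tested (25.2% higher, 24.4% lower). The counts below describe these lists, which were chosen with earlier results of these data known. Of 12 genes of the JNK cascade, 8 rose and 4 fell (median 0.57), against 6 and 4 with library size only. The kinase genes MAPK8 and MAPK9, which encode JNK1 and JNK2, rose by 0.81 ± 0.08 and 0.63 ± 0.07, and MAPK8IP3, a scaffold of the cascade, by 1.10 ± 0.08 (edgeR adjusted p = 0.000308, 0.000652 and 0.000117). The 4 that fell, named after their values were seen, were MAP2K7 (-0.53 ± 0.10), MAP3K5 (-0.66 ± 0.14), MAP3K11 (-0.37 ± 0.08) and MAP3K7 (-0.27 ± 0.07), of which MAP2K7 alone was still called without control replicate 1, and MAP3K7 lost its call without any 1 of the 4 libraries. Of 20 genes of the ERK and p38 cascades, 9 rose and 6 fell (median 0.01), against 6 and 10 with library size only (median -0.33). MAP2K3, an activator of p38, had 119 and 111 CPM in deprived against 14.6 and 12.6 CPM in control cells (3.08 ± 0.10, edgeR adjusted p = 1.47e-05). MAP2K6, the other main activator of p38, moved the opposite way, with 20.0 and 21.9 CPM in deprived against 87.1 and 89.5 CPM in control cells (-2.08 ± 0.08, edgeR adjusted p = 1.77e-05). BRAF, a kinase at the top of the ERK cascade, rose by 1.87 ± 0.07 (edgeR adjusted p = 1.56e-05).

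Most of the listed genes of factors that act at the FOS and JUN promoters rose. Over all genes tested, 25.2% were called higher. With 9 genes, chosen with earlier results of these data known, the counts are a description. Of 9, 8 rose and 0 fell by edgeR, with 0 lower also at an unadjusted p under 0.05, by DESeq2 and by limma-voom (median 1.24, and 0.91 with library size only, where 8 rose). SRF, which binds the FOS promoter with the ELK factors, had 50.2 and 48.6 CPM in deprived against 17.7 and 16.6 CPM in control cells (1.53 ± 0.08, edgeR adjusted p = 3.54e-05). MEF2D, which acts at the JUN promoter, rose by 2.08 ± 0.12 and CREB1, which binds CRE sites, by 1.24 ± 0.07 (edgeR adjusted p = 5.24e-05 and 5.30e-05). MRTFB, an SRF coactivator named after its value was seen, was the member not called (0.14 ± 0.07, edgeR adjusted p = 0.126), and was at -0.19 with library size only.

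Of 6 genes for the breakdown of JUN and FOS proteins, 4 rose and 0 fell by edgeR, with 0 lower also at an unadjusted p under 0.05, by DESeq2 and by limma-voom (median 0.73), against 3 and 1 with library size only (median 0.39). Of all genes tested 25.2% were called higher, so with 6 genes this count is a description. FBXW7, the ubiquitin ligase subunit that binds phosphorylated c-Jun, had 55.7 and 55.5 CPM in deprived against 20.1 and 20.8 CPM in control cells (1.44 ± 0.07, edgeR adjusted p = 3.37e-05). DET1, an adaptor in a ligase complex for c-Jun, rose by 1.46 ± 0.13 and ITCH, a ligase for JUN proteins, by 0.92 ± 0.13 (edgeR adjusted p = 0.000254 and 0.00198). The 2 not called, named after their values were seen, were COP1 (-0.13 ± 0.07) and GSK3B (0.10 ± 0.07), with edgeR adjusted p = 0.207 and 0.289. With upper-quartile factors, or with protein-coding transcripts only, 1 gene of this list was called lower.

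Genes known from other work as AP-1 targets were mostly higher. Of 18, 15 were tested, 12 rose and 1 fell (median 1.97, unchanged with IL6 at its lower bound), against 10 and 2 with library size only (median 1.62). By edgeR 2 were lower at an unadjusted p under 0.05. With upper-quartile factors, or a filter of at least 50 counts in 2 libraries, 2 were also called lower. Over all genes tested, 25.2% were called higher and 24.4% lower. This list was chosen with earlier results of these data known, so its counts are a description. IL6, named after its values were seen, had 180 and 209 counts in deprived against 0 and 0 in control libraries, at least 68.2-fold higher against a floor of 3 counts per control library. CXCL8, an interleukin that draws neutrophils, had 195 and 170 CPM in deprived against 3.91 and 3.90 CPM in control cells (5.54 ± 0.11, edgeR adjusted p = 8.64e-06). CD44, a hyaluronan receptor named after its values were seen, was the target called lower in the main fit, with 366 and 339 CPM in deprived against 728 and 735 CPM in control cells (-1.05 ± 0.08, edgeR adjusted p = 0.000147). TGFB1, likewise named after its values were seen, missed the threshold narrowly (-0.29 ± 0.10, edgeR adjusted p = 0.0525). The collagenase and stromelysin genes MMP1, MMP3 and MMP13 had too few counts to be tested.

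**Figure D4:**
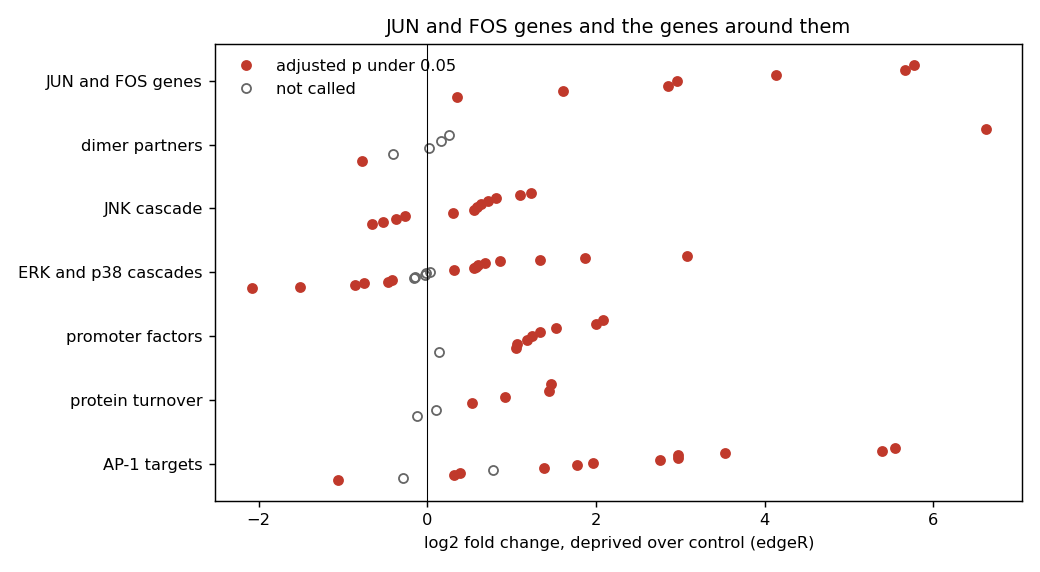
Log2 fold change, deprived over control, of the JUN and FOS genes and of 6 lists of related genes, with filled points for an edgeR adjusted p under 0.05 and open points for genes not called. IL6, at 0 counts in both control libraries, is left out. The JUN and FOS genes run from 0.36 to 5.77, while the ERK and p38 genes lie on both sides of 0.

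Some genes had profiles close to those of the founding members, by Euclidean distance over the 4 libraries between log2 CPM centred on the control mean, over 9513 protein-coding candidates whose mean level was 10 CPM or more. For JUN these included CXCL8 (distance 0.224) and DDIT3 (0.476), the stress factor CHOP, which had 143 and 124 CPM in deprived against 3.26 and 3.29 CPM in control cells. For FOS they were ZSCAN12 (0.158), IPPK (0.171) and ZSCAN22 (0.173), with 22.2 to 50.1 CPM in deprived against 6.24 to 15.7 CPM in control libraries. With 4 libraries in 2 groups, such closeness reflects mainly a like fold change.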

How the data were processed

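The authors deposited 1 file per library with whole-number counts for 229420 Ensembl transcripts, per the file headers. They were treated as estimated counts, because how the deposited values assign reads shared by overlapping transcripts is not given, and needed no rounding. HISAT2 2.0.5, featureCounts 1.5.0-p3, DESeq2 1.20.0 and hg38 are named without a role in the submitters' processing notes, and the tool that made transcript values is not given in the sources used here. GENCODE release 29 (GRCh38) matched 205306 transcripts holding 98.0% to 98.2% of each library's counts, and counts were summed to genes. The authors' deposited table of long non-coding RNAs holds no member and was not used.

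Genes were filtered with filterByExpr, scaled with TMM (factors 0.862 and 0.919 for the deprived, 1.15 and 1.10 for the control libraries) and tested with edgeR 4.0.16 in R 4.3.3. The test was checked on simulated data. With edgeR's trended dispersions the share of false calls was near the threshold, but with its per-gene dispersions, tried first, it was well above, so calls of borderline adjusted p may hold more false ones than the threshold states. DESeq2 1.42.0 and limma 3.58.1 were alternatives. SE is the absolute log2 fold change over the square root of F. TPM used each transcript's exonic length. Replicates differed by more than sampling noise (chi-square per degree of freedom 43.6 for deprived, 31.0 for control). Permutation tests used SciPy 1.17.1.

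The members and lists were chosen with earlier results of these data known. Named were all members, the 3 smallest p-values per list among genes called, 6 genes by name, and the 3 genes closest to JUN and to FOS. Some genes that this rule names are not reported here. Promoter sequences are RefSeq's (GRCh38.p14), and motifs were chosen after the windows had been seen. No protein table was used here.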

Additional observations from a re-analysis of the deposited data

How the results depend on the processing

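Across 13 alternatives, the 7 members' log2 fold changes stayed positive in all 91 values and past the threshold in 88, the exceptions being JUND with library size only (0.020, a log2 fold change) and without control replicate 1 or deprived replicate 1. Leaving out each replicate in turn gave JUND 0.27 to 0.46, with 6 or 7 members called higher. The genes called lower over the 6 related lists together were 12, against 19 with library size only and 7 to 11 with a replicate left out, 7 being without control replicate 1. JDP2 (-0.090) and MRTFB (-0.19) reversed with library size only, neither being called. The FOS group's share of TPM moved to 50.1% in deprived and 29.8% in control cells with mean transcript length. The cause of these shifts was not tested. Searching the given strand only left TGACG in all 6 windows.

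The replicate numbers pair nothing in the labels, and deviations of same-numbered libraries correlated at -0.02 across genes. With the replicate block 5529 genes were higher and 5079 lower, against 6174 and 5982, all 7 members stayed called higher, and JUND was at 0.36 (edgeR adjusted p = 0.0465). The block ended 1 call among the genes named, MAP3K7 (edgeR adjusted p = 0.0691).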
